A study of Mus musculus with 15 samples.

Results

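The GIMAP genes examined here are Gimap1, Gimap3, Gimap4, Gimap5, Gimap6, Gimap7, Gimap8 and Gimap9, which lie side by side on mouse chromosome 6. They are defined by name and position, and all 8 of them are among the 12545 genes of the deposited table. RNA was sequenced from 15 T cell leukemia lines grown from the thymus of moribund FVB/NJ mice, with 1 library per line. Of these, 7 lines came from E2a-/- mice (names beginning with SKO) and 8 from DKO mice (E2a-/-LefF/F LckCre+), in which Cre driven by the Lck promoter deletes the floxed Lef1 alleles in T lineage cells. E2a was absent in both groups and no E2a-sufficient line was analysed, so the comparison is of E2a-deficient leukemias with and without deletion of Lef1. The lines were kept in culture without treatment. The questions were whether the GIMAP genes are expressed together in a given line, and whether their mRNA goes with genotype or with the mRNA of Notch1 or Ikzf1.

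GIMAPs (GTPases of the immunity-associated protein family) are small GTP-binding proteins with a shared AIG1-type domain, found mainly in lymphocytes. Several are anchored to the membranes of the endoplasmic reticulum, Golgi or lysosome. Their mRNA is low in immature thymocytes and rises as T cells mature and leave the thymus, and the family is best known for its part in the survival of peripheral T cells. Notch1 is a receptor whose intracellular part activates transcription in early thymocytes and in most T cell leukemias, and Ikzf1 encodes Ikaros, a zinc finger factor of lymphocytes that limits Notch target genes.

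Promoter sequences were taken from RefSeq (GRCm38.p6), in which all 8 genes were matched by symbol with 9 windows of 300 bases, since Gimap8 has 2 starts. The 250 bases before the start of 3 genes are shown, because Gimap9 was the only member at 1 CPM or more in every line, Gimap4 differed most between SKO115.2 and SKO163.5, the lines with the most GIMAP mRNA, and Gimap5 is the best studied member. The capitals mark E-boxes (CANNTG), the motif bound by E proteins such as those encoded by E2a. The stretches are chr6:48675885-48676134 for Gimap9, chr6:48684328-48684577 for Gimap4 and chr6:48745947-48746196 for Gimap5, all on the plus strand.
Gimap9: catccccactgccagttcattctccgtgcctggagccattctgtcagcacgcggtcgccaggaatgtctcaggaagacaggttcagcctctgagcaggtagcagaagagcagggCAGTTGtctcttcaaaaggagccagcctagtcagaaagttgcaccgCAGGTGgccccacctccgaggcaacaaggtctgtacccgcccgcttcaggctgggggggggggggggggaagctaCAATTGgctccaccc
Gimap4: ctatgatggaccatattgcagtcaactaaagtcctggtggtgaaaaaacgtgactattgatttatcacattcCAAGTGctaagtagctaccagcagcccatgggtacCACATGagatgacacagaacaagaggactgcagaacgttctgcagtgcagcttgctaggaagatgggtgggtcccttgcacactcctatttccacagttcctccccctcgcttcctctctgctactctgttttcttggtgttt
Gimap5: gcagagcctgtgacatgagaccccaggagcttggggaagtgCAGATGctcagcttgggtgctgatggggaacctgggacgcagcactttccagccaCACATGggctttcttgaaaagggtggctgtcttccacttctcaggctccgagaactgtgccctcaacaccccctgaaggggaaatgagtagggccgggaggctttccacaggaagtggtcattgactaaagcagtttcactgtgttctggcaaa

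The Gimap9 stretch holds 3 E-boxes, 8 CG pairs and 61.2% G and C. The Gimap4 stretch holds 2 E-boxes, 3 CG pairs and 47.6% G and C, and the Gimap5 stretch 2 E-boxes, 3 CG pairs and 55.6% G and C. The form CACCTG, searched on both strands, was found in the Gimap9 window alone of the 9, and in 20.2% of all 32851 promoter windows. Any E-box was found in 7 of the 9 windows and in 72.3% of all windows, so the motif is common. The ETS-type core AGGAAG was in 7 of 9 windows against 35.4% of all. KLF-type CACCC was in 6 of 9 against 57.5% of all. RUNX-type TGTGGT was in 3 of 9 against 16.8% of all. TCF/LEF-type CTTTGT was in 3 of 9 against 18.7% of all, and CTTTGA in 2 of 9 against 16.0%. The RBPJ-type GTGGGAA was in 1 of 9, that of Gimap3, against 6.38% of all. The ETS-type CCGGAA (14.9% of all), the E-box form CAGCTG (16.3%) and the GATA-type AGATAA (11.2%) were in 0 of 9, and TATAAA was in 1 of 9 against 13.6% of all. The windows of Gimap8 overlap each other, CANNTG includes CACCTG and CAGCTG, and TGGGAA (1 of 9, 25.6% of all) includes GTGGGAA. A match is a description of the letters and not evidence of binding.

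Between 4847970 reads (DKO79.9) and 21681586 reads (SKO95) were assigned to the listed genes, so that 3 reads, the smallest amount read here as detected, were worth 0.138 to 0.618 CPM (the reads of a gene scaled by the authors to the reads assigned to genes in that line). Lef1 mRNA, the target of the deletion, was 103 to 210 CPM in the DKO lines with a median of 128 CPM. In 6 E2a-/- lines it was 668 to 1558 CPM, but the library labelled SKO132 had 59.0 CPM, below every DKO line. That library also had the lowest Notch1 mRNA, so the calls by genotype and by Ikzf1 level are also given without it. T cell markers were present in all lines, with a summed level over 17 genes of 3409 to 7102 CPM. Among markers of other cells, Blnk was the only 1 of 7 B cell markers listed and reached at most 6.54 CPM, the 3 listed myeloid markers of 8 summed to 8.99 to 18.9 CPM, and the 5 erythroid markers, Cdh5 and Kdr were not among the listed genes. Rora, an innate lymphoid marker that T cells also express, ran up to 304 CPM in an E2a-/- line and was at 27.9 CPM in SKO115.2. Col1a2, a stromal marker, ran up to 947 CPM in the other lines and was at 22.4 CPM in SKO115.2 and 116 CPM in SKO163.5, while Col1a1 and Col3a1 were not among the listed genes. In bulk RNA, fewer cells with a transcript and less of it per cell cannot be told apart. The labels do not say more about how independent the lines are, so p-values measure only the spread between these lines.

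All 8 GIMAP genes were high in the same 2 E2a-/- lines, SKO115.2 and SKO163.5. For each of the 8, SKO115.2 was the highest and SKO163.5 the next highest of the 15 lines. These lines were both above the other 13 for 5.13% of all genes (644 of 12545), so the 8 of 8 is set against that share. The pair was picked for its GIMAP levels, so the 8 of 8 is a description and not a test. Summed over the family, SKO115.2 had 623 CPM and SKO163.5 had 403 CPM. The other 13 lines had 7.83 CPM (SKO132) to 91.3 CPM (DKO79.9). No DKO line and none of the other 5 E2a-/- lines came near the sums of the first pair.

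**Figure D1:**
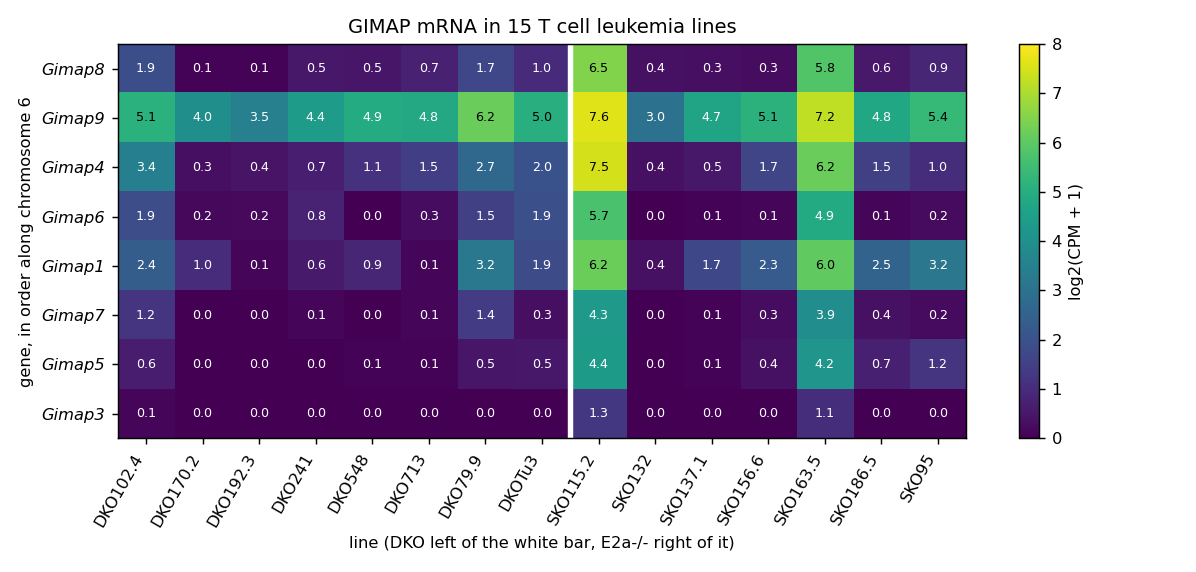
Each square is the mRNA of 1 GIMAP gene in 1 line, as log2(CPM + 1). Rows are genes, in order of start in the deposited coordinates of chromosome 6. Columns are lines, DKO left of the white bar and E2a-/- right of it. SKO115.2 and SKO163.5 are high for all 8 genes, and Gimap9 is the only gene above 1 CPM in all 15 lines.

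Gimap5 is a lysosomal membrane GTPase whose loss in mice and rats leads to a shortage of peripheral T cells. It was at 19.5 CPM in SKO115.2 and 17.0 CPM in SKO163.5. In the other 13 lines it ran from 0 to 1.29 CPM (SKO95) with a median of 0.0622 CPM, and 5 of the 13 had 3 reads or more. Gimap3, the gene most like Gimap5 in sequence, was at 1.45 CPM (28 reads) in SKO115.2 and 1.08 CPM (20 reads) in SKO163.5. In 12 of the other 13 lines it had no read, and DKO102.4 had 2 reads (0.0978 CPM). The transcripts of Gimap3 and Gimap5 share 7.52% of the 50-base stretches of Gimap3 and 4.53% of those of Gimap5, and how reads on such stretches were counted was not tested.

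Gimap1, which mature T and B cells need to persist, was at 72.1 CPM in SKO115.2 and 64.9 CPM in SKO163.5. In the other 13 lines it was at 0.0935 to 8.24 CPM with a median of 2.30 CPM. Unlike Gimap5 it was thus above 1 CPM in 10 of all 15 lines. Gimap4, a GTPase that promotes the death of T cells once apoptosis has begun, was at 177 CPM in SKO115.2 and 71.0 CPM in SKO163.5. The other 13 lines had 0.255 to 9.92 CPM of Gimap4, with a median of 1.21 CPM. Of the 8 genes, Gimap4 differed most between the high lines, 2.49-fold, while the others differed 1.11-fold (Gimap1) to 1.77-fold (Gimap6).

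Gimap6, which binds the autophagy protein GABARAPL2, was at 50.9 CPM in SKO115.2 and 28.8 CPM in SKO163.5, against 0 to 2.84 CPM with a median of 0.140 CPM in the other 13. Gimap7, which stimulates GTP hydrolysis by pairing with another GIMAP, was at 19.2 and 14.2 CPM in those lines, against 0 to 1.65 CPM with a median of 0.106 CPM. Gimap8, the longest protein of the family with several GTPase domains, was at 87.6 and 55.6 CPM, against 0.0467 to 2.79 CPM with a median of 0.425 CPM. None of the 3 had any overlap between the high pair and the rest, and Gimap8 had the widest gap of the family, with SKO163.5 at 20 times the level of the next line, DKO102.4.

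Gimap9 behaved differently in level but not in order. It was at 195 CPM in SKO115.2 and 151 CPM in SKO163.5, against 7.0 CPM (SKO132) to 71.5 CPM (DKO79.9) with a median of 27.2 CPM in the other 13 lines. SKO163.5 was 2.11 times as high as DKO79.9, the smallest gap among the 7 genes other than Gimap3. Gimap9 made up 60.8% (95% Wilson interval 57.9% to 63.6%, DKO102.4) to 94.4% (90.7% to 96.7%, DKO192.3) of the summed GIMAP CPM in the other 13 lines. Its share was 31.4% (30.5% to 32.2%) in SKO115.2 and 37.4% (36.3% to 38.5%) in SKO163.5. These intervals cover counting error only.

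Levels can be compared between genes only per length. Per kb of annotated exon, SKO115.2 had 119 CPM of Gimap9, 96.2 of Gimap4, 23.7 of Gimap8, 23.5 of Gimap1, 14.6 of Gimap6, 8.27 of Gimap7, 4.70 of Gimap5 and 0.563 of Gimap3. Gimap9 and Gimap4 therefore led the family in that line and Gimap3 was the lowest. In SKO163.5 the values per kb were 91.7 for Gimap9 and 38.6 for Gimap4. Over the other 13 lines, the median per kb was 16.6 CPM for Gimap9 and at most 0.749 CPM (Gimap1) for the rest.

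Taking 1 CPM as the level at which a gene is on, all 8 genes were on in 2 lines, SKO115.2 and SKO163.5. In the other 13 lines the family was neither fully on nor fully off. DKO102.4 and DKO79.9 had 6 genes on, DKOTu3 and SKO95 had 4, SKO156.6 and SKO186.5 had 3, DKO170.2, DKO548, DKO713 and SKO137.1 had 2, and DKO192.3, DKO241 and SKO132 had Gimap9 alone. By gene, Gimap9 was on in 15 lines, Gimap1 and Gimap4 in 10 each, Gimap6 in 5, Gimap7 and Gimap8 in 4 each, Gimap5 in 3 and Gimap3 in 2. At a level of 5 CPM no line had all 8 genes on, because Gimap3 stayed below it, while SKO115.2 and SKO163.5 had 7. DKO79.9 was sequenced least, and its Gimap5 value of 0.412 CPM rests on 2 reads.

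Across the 15 lines the GIMAP genes ranked the lines alike. The 28 pairs of genes had Spearman rho of 0.533 (Gimap1 with Gimap6) to 0.921 (Gimap4 with Gimap7), with a median of 0.773. For comparison, the 12471 pairs of genes that follow each other along a chromosome in the table had a median of 0.186, and 3.58% of them reached 0.773. Without SKO115.2 and SKO163.5, the median over the 28 GIMAP pairs was 0.650 and that over neighbouring pairs was 0.181, with 9.60% of these at or above 0.650. The lowest pairs then included those with Gimap3, which was at 0 in 12 of the 13 lines, and Gimap1 with Gimap6 (0.281). Gimap4 with Gimap7 (0.878) and Gimap1 with Gimap5 (0.858) stayed high. Of these 13 lines, however, only 5 had 3 reads or more of Gimap5 and only 6 of Gimap7. The ranks of both genes, and the median of 0.650, thus rest in part on values under 3 reads. The pairs share their lines and sequencing depth, and these values are descriptions.

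**Figure D2:**
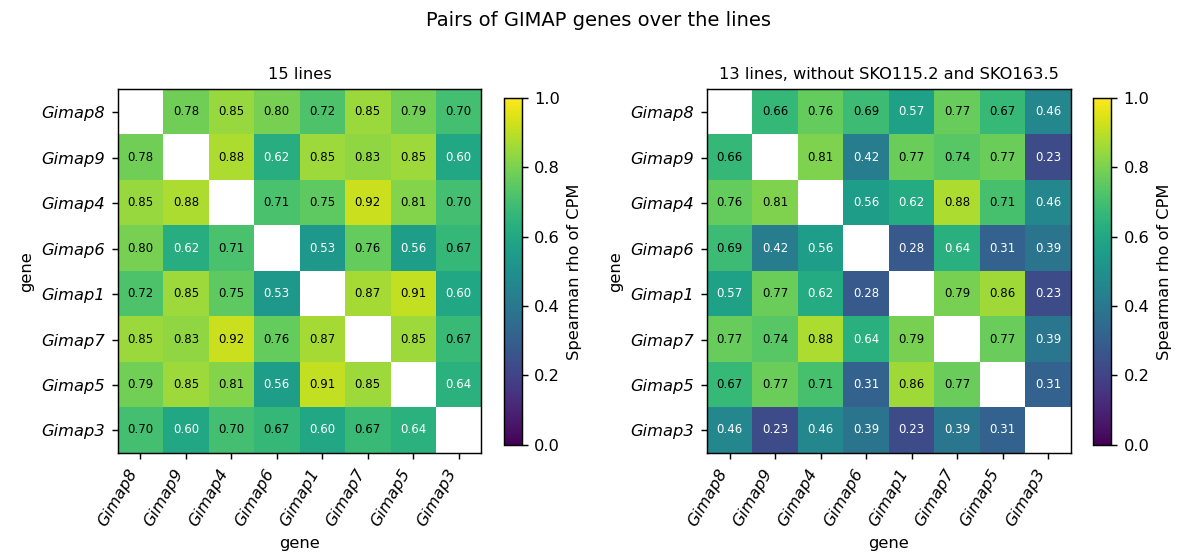
Spearman rho of CPM for each pair of GIMAP genes, in order of start in the deposited coordinates of chromosome 6. Values are over 15 lines on the left and over the 13 lines without SKO115.2 and SKO163.5 on the right. The median over the 28 pairs is 0.773 on the left and 0.650 on the right, and the 7 pairs of Gimap3 are at 0.463 or below on the right.

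Within the 13 lines, the next highest line depended on the gene. It was DKO79.9 for Gimap1, Gimap7 and Gimap9, DKO102.4 for Gimap3, Gimap4 and Gimap8, SKO95 for Gimap5 and DKOTu3 for Gimap6. Gimap6 was on in 3 DKO lines of this set, at 2.69 CPM in DKO102.4, 1.85 CPM in DKO79.9 and 2.84 CPM in DKOTu3, while the other 5 E2a-/- lines had at most 0.184 CPM. Gimap1 was highest in DKO79.9 (8.24 CPM), followed by SKO95 (7.97 CPM), SKO186.5 (4.84 CPM), DKO102.4 (4.11 CPM) and SKO156.6 (3.93 CPM). DKOTu3 had 2.63 CPM of Gimap1. With the high pair set aside, DKO79.9 and DKO102.4 were thus among the higher lines for both Gimap6 and Gimap1. SKO95, SKO186.5 and SKO156.6 were among the higher lines for Gimap1 but had at most 0.184 CPM of Gimap6.

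In the comparison of genotypes, each of the 8 genes had a lower mean in DKO than in E2a-/- lines, and none passed the test. By limma on log2(CPM + 1), with Benjamini-Hochberg adjustment over 12545 genes and the study's threshold of 0.01, 0 of 8 were called, against 0.0478% of all genes (6 of 12545). At an unadjusted p under 0.05, 1 of 8 passed (Gimap1), against 10.2% of all genes. The differences (DKO minus E2a-/-) ran from -1.92 (Gimap1) to -0.32 (Gimap3) on the log2(CPM + 1) scale, which understates the change of low genes. Their median was -1.03, against -0.019 over all genes. Of all genes, 53.7% were lower in DKO.

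Gimap1 was at 0.0935 to 8.24 CPM with a median of 0.913 CPM in the DKO lines, and at 0.276 to 72.1 CPM with a median of 4.84 CPM in the E2a-/- lines. The means were 2.18 ± 2.82 CPM (SD, n = 8) and 22.3 ± 31.7 CPM (SD, n = 7). The difference was -1.92 with a standard error of 0.81, an adjusted p of 0.437 by limma and a two-sided exact permutation p of 0.0448. The groups overlapped, since SKO132 lay within the DKO range and DKO79.9 above 5 of the 7 E2a-/- lines. Gimap5 was at 0 to 0.538 CPM with a median of 0.0529 CPM in DKO and at 0 to 19.5 CPM with a median of 0.616 CPM in E2a-/- lines. Its difference was -1.33 with a standard error of 0.63, an adjusted p of 0.498 by limma and an exact permutation p of 0.0345. The groups overlapped for Gimap5 as well.

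The exact permutation p was 0.200 to 0.455 for the other genes. By ranks in place of log2 values, exact p ran from 0.0766 (Gimap5) to 0.779 (Gimap8). Gimap4 was at 0.255 to 9.92 CPM with a median of 1.5 CPM in DKO and at 0.276 to 177 CPM with a median of 1.85 CPM in E2a-/- lines. Gimap8 was at 0.0467 to 2.79 CPM with a median of 0.551 CPM in DKO and at 0.207 to 87.6 CPM with a median of 0.474 CPM in E2a-/- lines, so that its medians and means had opposite orders. Gimap6 had medians of 0.468 CPM in DKO and 0.0948 CPM in E2a-/- lines, the same opposition. Gimap7 had medians of 0.101 and 0.207 CPM, Gimap9 of 28.2 and 34.0 CPM, and Gimap3 of 0 in both groups.

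**Figure D3:**
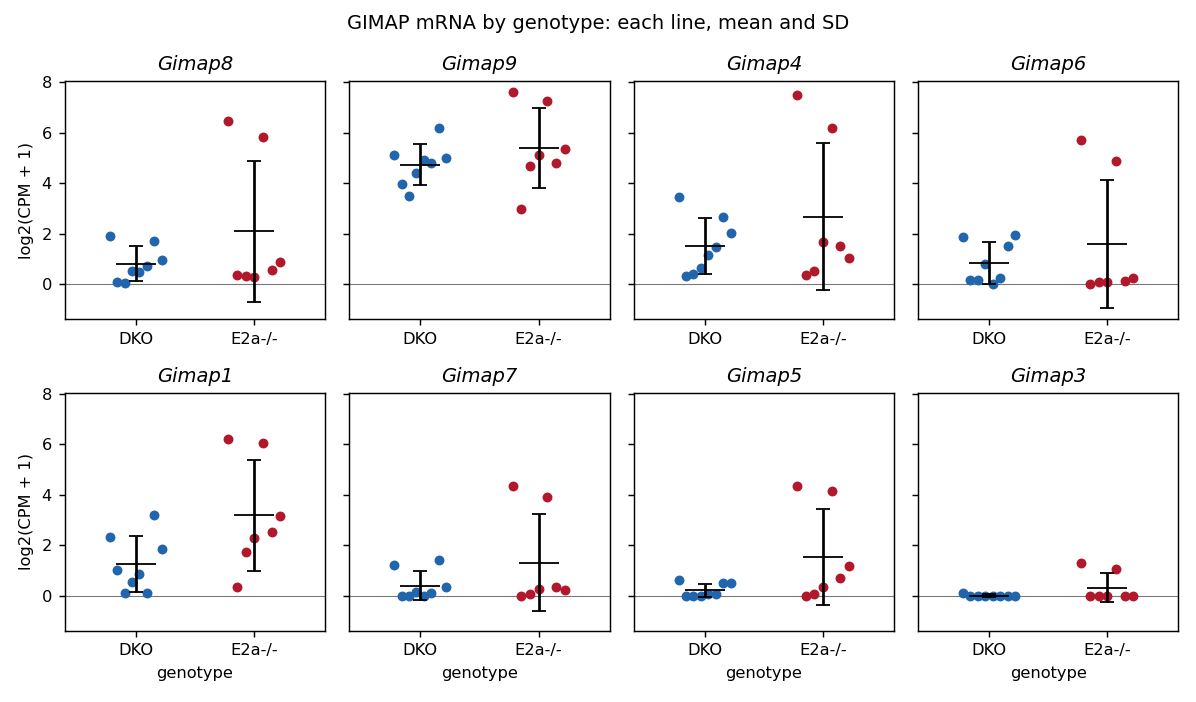
Each point is 1 line, with log2(CPM + 1) on the vertical axis and genotype on the horizontal axis (8 DKO lines in blue, 7 E2a-/- lines in red), and the black bars are the mean and SD of each group. In every panel the highest points are the same 2 E2a-/- lines, SKO115.2 and SKO163.5, and the other 5 E2a-/- lines overlap the DKO lines.

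The lower means in DKO rested on SKO115.2 and SKO163.5 for 6 of the 8 genes. With both set aside, the difference (DKO minus E2a-/-, 8 lines against 5) was 0.73 for Gimap6, 0.50 for Gimap4, 0.34 for Gimap8, 0.22 for Gimap7, 0.14 for Gimap9 and 0.017 for Gimap3, now higher in DKO. It was -0.75 for Gimap1 and -0.24 for Gimap5, still lower in DKO. Without SKO132, 0 of 8 were called (adjusted p by limma 0.182 to 0.688) against 0.136% of all genes (17 of 12545), and 2 of 8 had an unadjusted p under 0.05 against 12.2% of all genes. SKO115.2 and SKO163.5 were set aside because of their GIMAP levels, so the values are descriptions with no test. Count tests on whole reads recovered from the CPM gave larger differences for low genes than log2(CPM + 1) did. The edgeR quasi-likelihood test called 0 of 8 (0.00797% of all genes, 1 of 12545), with 7 of 8 at an unadjusted p under 0.05 against 10.8% of all genes. DESeq2 called 1 of 8, Gimap8 (log2 difference -4.48 with a standard error of 1.17, adjusted p 0.00931), against 1.41% of all genes (177), with 7 of 8 at an unadjusted p under 0.05 against 13% of all genes.

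Notch1 mRNA was high in both lines with high GIMAP mRNA, at 2266 CPM in SKO115.2, the highest of all lines, and 2141 CPM in SKO163.5, the third highest. It was about as high in lines with little GIMAP mRNA. DKO192.3 had 2200 CPM of Notch1 and a GIMAP sum of 10.8 CPM, and SKO137.1 had 2031 CPM of Notch1 and a GIMAP sum of 27.7 CPM. SKO132 lay far below the other lines for Notch1, at 31.3 CPM, and was left out of the fit on Notch1. Over the other 14 lines, limma called 0 of 8 genes by Notch1 level and 0 of the 12544 genes tested (0%), and 2 of 8 had an unadjusted p under 0.05 (Gimap3 and Gimap5), against 19.4% of all genes. Slopes ran from 0.53 (Gimap3) to 2.34 (Gimap8), in log2 units of the gene per log2 unit of Notch1, with adjusted p of 0.225 to 0.425.

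The slopes on Notch1 changed sign without SKO115.2 and SKO163.5, to -0.89 (Gimap4) through -0.028 (Gimap3). These lines were set aside because of their GIMAP levels, so these slopes and the correlations without them are descriptions with no test. Pearson r over these 12 lines was -0.37 to -0.20 for the 6 members with 3 reads in at least 6 lines and Spearman rho was -0.43 to -0.070. Without DKO170.2 and DKO192.3, the lines farthest from the median of Notch1, r was -0.73 for Gimap4 and -0.52 to -0.22 for the other members. Without DKO192.3 alone, all 8 genes had an unadjusted p under 0.05 for Notch1, against 23.3% of all genes, and 0 were called (adjusted p by limma 0.105 to 0.193), against 1 of 12544 genes. Nrarp, a target gene of Notch1, called 0 of 8 in its place and 0 of all 12544 genes, and 0 of 8 had an unadjusted p under 0.05 against 14% of all genes. With all 15 lines, 0 of 8 were called against 1.17% of all genes (147 of 12544), and 1 of 8 (Gimap9) had an unadjusted p under 0.05 against 13.4% of all genes.

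Ikzf1 mRNA was 750 CPM in SKO115.2 and 847 CPM in SKO163.5, the third and the second highest of the 15 lines. The highest, DKO241 at 1257 CPM, had a GIMAP sum of 22.6 CPM. Ikzf1 was lowest in DKO170.2 (0.128 CPM), DKO102.4 (2.98 CPM) and SKO132 (3.86 CPM), and of these DKO102.4 had a GIMAP sum of 54.9 CPM, the fourth highest of all lines. High Ikzf1 thus went with both high and low GIMAP mRNA. By limma over 15 lines, 0 of 8 genes were called by Ikzf1 level and 0 of the 12544 genes tested (0%), and 1 of 8 had an unadjusted p under 0.05 (Gimap9, slope 0.19 with a standard error of 0.085, adjusted p 0.244), against 18.9% of all genes. Without SKO132, 0 of 8 were called by Ikzf1 level (adjusted p by limma 0.395 to 0.710) against 0.0239% of all genes (3 of 12544), and 0 of 8 had an unadjusted p under 0.05 against 23.6% of all genes. Without SKO115.2 and SKO163.5, Pearson r with Ikzf1 over 13 lines was -0.064 (Gimap7) to 0.48 (Gimap9) and Spearman rho was 0.080 to 0.38. Leaving out DKO102.4 and DKO170.2, the farthest from the median of Ikzf1, r ran from 0.21 (Gimap7) to 0.67 (Gimap9).

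**Figure D4:**
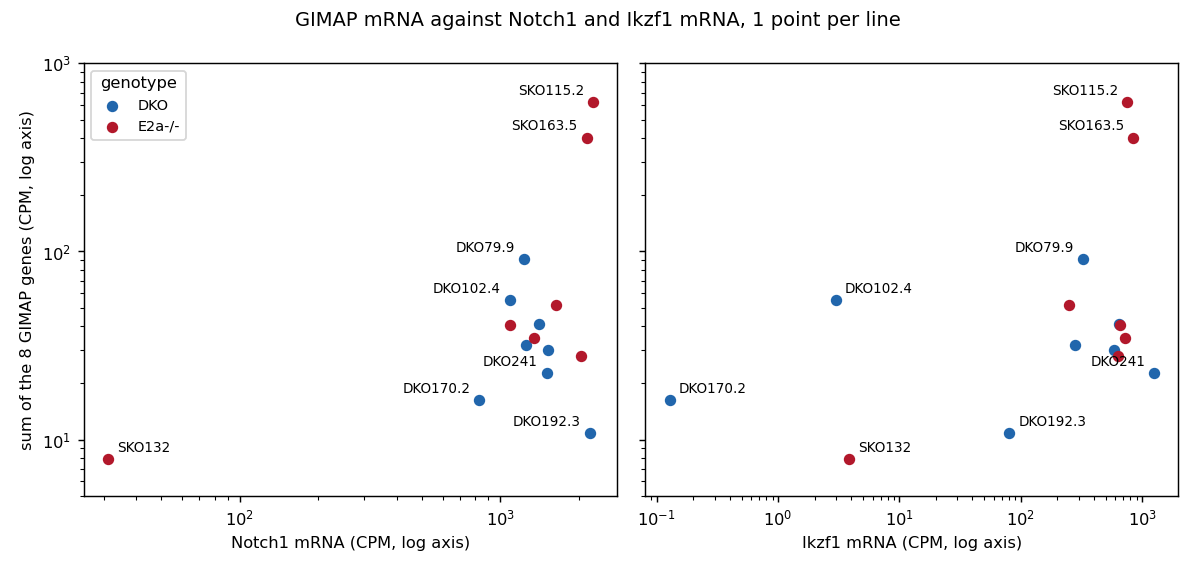
The sum of the 8 GIMAP genes (vertical, CPM on a log axis) against Notch1 (left) and Ikzf1 (right) mRNA (horizontal, CPM on a log axis), 1 point per line, DKO in blue and E2a-/- in red. SKO115.2 and SKO163.5 stand at the upper right of both panels, while DKO192.3 has as much Notch1 (2200 CPM) and DKO241 more Ikzf1 (1257 CPM) with sums of 10.8 and 22.6 CPM.

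The GIMAP genes span 119 kb of chromosome 6. By the RefSeq promoter positions their order is Gimap8, Gimap9, Gimap4, Gimap6, Gimap7, Gimap1, Gimap5 and Gimap3. In the coordinates of the deposited table, which are not those of GRCm38, Gimap8 is at chr6:48597233-48610874 and Gimap3 at chr6:48715088-48716518. There Gimap1 is listed at chr6:48668606-48702599, a span that holds all of Gimap7 (chr6:48668620-48674635) and reaches into Gimap5. Only Gimap6 and Gimap3 lie on the minus strand. Within 300 kb on either side, the table lists 8 other genes. The antisense gene Gimap1os was near 0 outside the high pair, at 33.0 CPM in SKO115.2 and 24.8 CPM in SKO163.5 against at most 0.0922 CPM elsewhere. In the annotation its exons overlap 36.0% of the exon bases of Gimap1 on the opposite strand, and no source used here states a strand setting, so reads from the overlap cannot be told apart. A joined transcript, Gm28053, shares 6.44% of the exon bases of Gimap1, 3.69% of those of Gimap5 and 3.48% of those of Gimap7.

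The nearest listed genes on both sides of the cluster lay within the range of the other lines, Zfp775 above their median and Tmem176b below it. Zfp775, which ends 24.0 kb before Gimap8, was at 4.77 CPM in SKO115.2 and 5.91 CPM in SKO163.5. The other 13 lines had 0 to 9.91 CPM of Zfp775 with a median of 0.319 CPM. Its rho to the family mean was 0.656 (Gimap1os 0.60). Tmem176b, which begins 67.3 kb after Gimap3, was at 3.63 and 8.33 CPM against 2.80 to 76.6 CPM (median 12.4 CPM). Tmem176a was at 1.19 and 4.25 CPM against 1.01 to 37.6 CPM (median 5.38 CPM). Of the more distant genes, Krba1 was at 40.4 and 58.7 CPM, above the 39.2 CPM of the highest other line, whereas Lrrc61, Gm7887 and Zfp467 lay within the range of the other lines. Chromosome 6 as a whole, by the median of 449 genes without the family, was shifted by 0.30 (log2) in SKO163.5 and by -0.013 in SKO115.2. DKO548 had a shift of 0.23 and a GIMAP sum of 31.7 CPM.

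**Figure D5:**
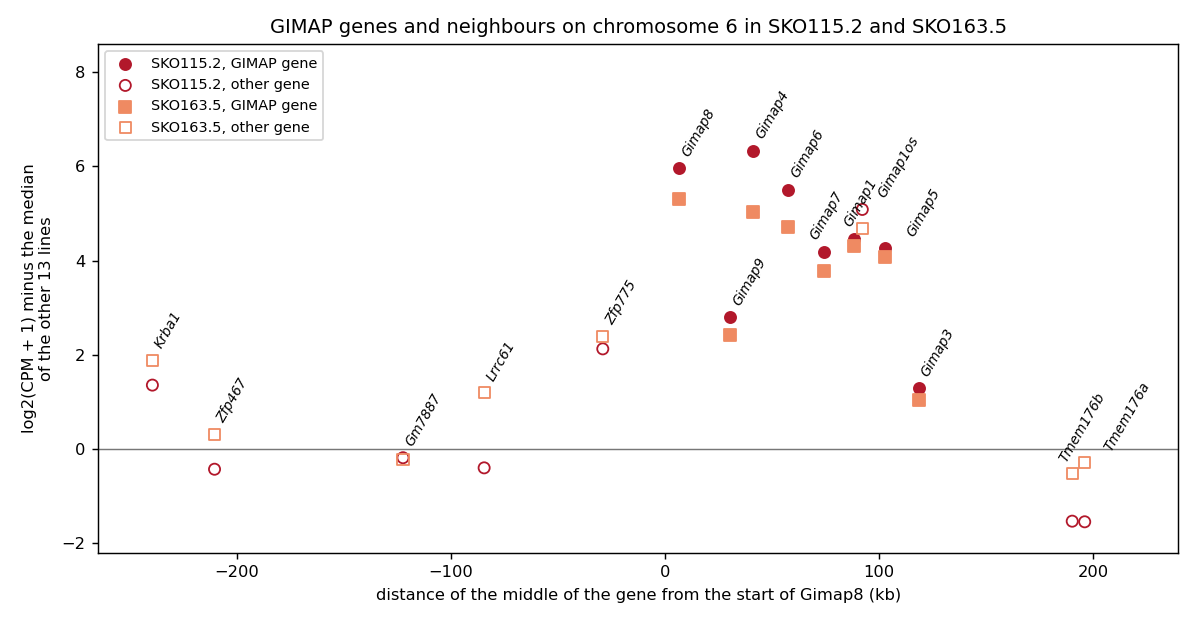
The GIMAP genes (filled) and the other listed genes within 300 kb (open) by distance in kb of the middle of the gene from the start of Gimap8, with log2(CPM + 1) in SKO115.2 (circles) and SKO163.5 (squares) minus the median of the other 13 lines on the vertical axis. All 8 GIMAP genes and Gimap1os lie above 1 in both lines, as do Zfp775 and Krba1, while Tmem176b and Tmem176a on the right lie below 0.

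SKO115.2 and SKO163.5 were alike beyond the GIMAP genes, but they differed in the leading T cell receptor beta V gene among those listed. Over all genes their Spearman rho was 0.969, the second highest of 105 pairs of lines (median 0.927), and the number of genes for which both were above all others was also the second highest (median 82). Only 10 Trbv genes are listed, so shares are of the reads on these 10, and unlisted ones were not seen. The gene with the most such reads was Trbv20 in SKO115.2 (85.8%, 95% Wilson interval 85.0% to 86.5%). In SKO163.5 it was Trbv19 (93.6%, 93.2% to 94.0%). The pair with the highest rho was SKO156.6 and SKO186.5 (0.987), which had the same leading V gene, Trbv26, at 61.6% (59.2% to 64.0%) and 81.0% (79.5% to 82.4%) of their Trbv reads. Whether these lines are separate leukemias was not tested. With both averaged into 1 line, 0 of 8 GIMAP genes were called by genotype (adjusted p by limma at least 0.491), against 6 of 12545 genes, and 2 of 8 had an unadjusted p under 0.05 against 9.53% of all genes. Of all genes, 49 (0.391%) were at 1 CPM or more in both lines and at least 5-fold above the highest of the other 13. Gimap1, Gimap3, Gimap4, Gimap5, Gimap6, Gimap7 and Gimap8 were among the 49, and Gimap9 was not. For Gimap3 the highest other line was DKO102.4, with 2 reads. As the lines were picked for their GIMAP levels, the place of these genes among the 49 is a description.

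The genes whose ranks over the 15 lines were most like the family mean (the mean over the 8 of standardised log2 values) were Esyt1 (Spearman rho 0.936), the lymph node homing receptor Ccr7 (0.932), Arl4c (0.911), the surface glycoprotein Cd52 (0.900), the diacylglycerol kinase Dgka (0.896), Gm16046 (0.886), Anxa6 (0.882), Mob3a (0.879), Tagln2 (0.875) and Pym1 (0.871). Ccr7 was at 87.4 CPM in SKO115.2 and 19.0 CPM in SKO163.5, against 0.0467 to 7.63 CPM in the other 13 lines. Dgka was at 214 and 120 CPM against 1.10 to 108 CPM. Esyt1 was the most alike by rank but moved little, at 368 and 306 CPM against 76.8 to 188 CPM. None of these 10 was called by genotype (limma), against 0.0478% of all genes. By Pearson r of log2(CPM + 1), which follows the high lines more than the ranks, the leading genes were Igfbp4 (0.985), Gpr18 (0.970) and Ddx19a (0.968), with Gimap1os at 0.953. Notch1 had rho 0.30 and Ikzf1 0.41 to the family mean.

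Other genes of mature T cells gave a mixed picture in the 2 lines. Of 22 listed genes of T cell maturation and egress, 8 were higher in both SKO115.2 and SKO163.5 than in all other lines, against 5.13% of all genes. By genotype, 0 of the 22 were called in either direction (limma), against 0.0478% of all genes. At an unadjusted p under 0.05 by limma, 0 of the 22 passed, against 10.2% of all genes. Klf2, which drives genes of T cell egress, was at 77.7 and 15.6 CPM against at most 11.7 CPM elsewhere. Foxo1, a factor that acts upstream of Klf2, was at 94.3 and 58.4 CPM against at most 54.5 CPM, and Foxp1, Itgb7, Cd69, Ccr7 and Gramd3 were also among the 8. Il7r, the receptor for the survival cytokine IL-7, was at 2.12 CPM in SKO115.2 and 0.538 CPM in SKO163.5, within the range of the other 13 lines (0 to 262 CPM) and below their median of 117 CPM. S1pr1, an egress receptor, was at 36.8 CPM in SKO115.2 and at 4.41 CPM in SKO163.5, which lay within the range of the others (0 to 13.5 CPM).

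GIMAP proteins have been linked to BCL2 family proteins, and of 11 listed genes of that group 1 was highest in both lines. Of all genes, 5.13% were highest in both lines, the share against which each list here is set. Bcl2, which protects T cells from apoptosis, was at 109 CPM in SKO115.2 and 92.7 CPM in SKO163.5, against 0.332 to 65.1 CPM with a median of 4.73 CPM in the other 13. Gabarapl2, the partner of Gimap6, was at 52.0 and 37.2 CPM against 27.6 to 60.8 CPM, and Gsk3b, linked to Gimap5, was at 149 and 160 CPM against 84.2 to 179 CPM. Gabarapl2 and Gsk3b thus lay within the range of the other lines. Among 15 listed Notch genes and 5 Ikaros family genes, 0 were highest in both lines. Some Notch genes came close, with Hes1 at 128.5 and 116.7 CPM against at most 116.8 CPM (median 52.6 CPM). Dtx1 was at 866 and 528 CPM against at most 579 CPM (median 199 CPM). Others lay below the median of the other 13 lines. Ptcra was at 8.91 and 32.8 CPM (median 54.9 CPM) and Il2ra at 8.65 and 51.8 CPM (median 364 CPM). Among 11 listed immune GTPases of other families, 1 was highest in both lines (Gbp7, 43.1 and 34.0 CPM against at most 31.9 CPM). In each of these lists, 0 genes were called by genotype (limma), against 0.0478% of all genes. In each, 0 had an unadjusted p under 0.05, against 10.2% of all genes. Of the T cell markers, Cd2 (203 and 105 CPM against at most 63.4 CPM), Cd5 and Bcl11b were highest in both lines, and of all 17, 0 were called by genotype with 1 higher and 1 lower in DKO at an unadjusted p under 0.05. Pecam1, an endothelial marker that T cells also carry, was at 157.4 and 141.5 CPM against at most 129 CPM, beside Esam at 1.04 and 2.04 CPM and Tie1 at 0.207 and 0.753 CPM, which lay within the range of the other lines.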

How the data were processed

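RNA was sequenced on a NextSeq instrument. Per the study's methods and the submitters' notes, reads were trimmed (Trimmomatic 0.33), aligned to mm10 (TopHat2 2.1.0), counted per gene (HTSeq 0.6.1) and scaled (edgeR). The deposited values are CPM, computed by the authors per line. All 15 columns were mapped by line name. Positions in the table are not those of GRCm38 (190 of 12172 genes start within 1 bp) and are printed as listed, and the deposited width column (other values, set by the authors) was above the gene's span for 1362 genes and was not used. Exon lengths are from GENCODE M21.

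Genotypes were compared by limma 3.58.1 (R 4.3.3) with a variance trend on log2(CPM + 1) and no filter, two-sided, with Benjamini-Hochberg adjustment at 0.01, and by exact permutation over the 6435 splits into 8 and 7 lines (smallest p 0.000155). Notch1 and Ikzf1 were covariates in the same model, over the largest cluster of lines where a gap above the preset share of the range separated them. Permutation correlations over that cluster had been planned, but as SKO115.2 and SKO163.5 stood apart for the GIMAP genes, r and rho are given without these lines and with no p. Each CPM divided by that of 1 read was whole for 100% of values (within 0.01), and edgeR 4.0.16 (1 gene called) and DESeq2 1.42.0 (177 called) were run on these reads. All tests were also run on simulated data. No pair of lines of the same genotype agreed within sampling noise (lowest chi-square per degree of freedom 55.7). Pairs of lines of different genotype were not checked in this way.

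Named genes are the 8 members, Notch1, Ikzf1, Nrarp, Lef1, listed genes within 300 kb, the 10 most alike by rho and genes of the lists, of which 1 is not reported here. The 3 genes leading by Pearson r, the leading Trbv genes and Gm28053 were named after their values were seen. The members and lists were chosen with earlier results of these data known. Results were recomputed with a pseudocount of 0.1 or 2, with genes averaging 1 CPM or more, other scalings, count tests, each line left out, SKO156.6 and SKO186.5 averaged, other thresholds and genotype as a covariate. After seeing the data, the fits without SKO115.2 and SKO163.5, the fit over lines with Ikzf1 at 10 CPM or more, rank permutation and likeness by Pearson r were added.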

Additional observations from a re-analysis of the deposited data

Results flagged for a closer look

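Within each genotype, each of the 8 GIMAP genes and Notch1, Ikzf1, Nrarp and Lef1 was checked for a line far from the others of its group. This made 24 checks, of which chance would single out about 1 in 20 if the values were normally distributed. That rate does not hold for genes mostly at 0, such as Gimap3, and the checks share their lines. The checks singled out 5 values. Gimap3 was at 0.0978 CPM in DKO102.4, which is 2 reads, and at 0 in the other DKO lines. The other 4 values were all from the library labelled SKO132, which among the E2a-/- lines was far below the rest for Notch1 (31.3 CPM against 1091 to 2266 CPM), Ikzf1 (3.86 CPM against 252 to 847 CPM), Nrarp (0 CPM against 15.6 to 51.8 CPM) and Lef1 (59.0 CPM against 668 to 1558 CPM). SKO132 also had the lowest GIMAP sum, 7.83 CPM, and without it 0 of 8 genes were called by genotype by limma, as with it. SKO115.2 and SKO163.5 were not singled out by these checks, because each lies near the other.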

How the results depend on the processing

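Under limma, 0 of 8 GIMAP genes were called by genotype, by Notch1 level or by Ikzf1 level in any alternative, including each line left out in turn (0 to 0). DESeq2 called 1, Gimap8, whose log2 difference was -4.48. At an adjusted p under 0.05, DESeq2 called 4 of 8 (Gimap1, Gimap4, Gimap5 and Gimap8), against 366 of 12545 genes. At that threshold, 0 of 8 were called by genotype by limma, against 19 of 12545 genes. The edgeR quasi-likelihood test also called 0 of 8, against 9 of 12545 genes. Of 191 alternative values of the differences by genotype, 184 kept direction and call. The 6 that turned were those without SKO115.2 and SKO163.5, at 0.017 for Gimap3, 0.50 for Gimap4, 0.73 for Gimap6, 0.22 for Gimap7, 0.34 for Gimap8 and 0.14 for Gimap9. With single lines left out, the differences stayed negative, at -2.40 to -1.42 for Gimap1 and -1.01 to -0.065 for Gimap6.

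Over all genes, 6 were called by genotype, 3 to 17 with a line left out (17 without SKO132, 10 without DKO79.9, and 3 without DKO170.2, DKO713, SKO137.1 or SKO156.6), 1 by the edgeR quasi-likelihood test, 177 by DESeq2 and 19 at an adjusted p under 0.05. The causes were not tested. TMM and median-of-ratios scaling moved the median difference of all genes by 0.026 and 0.018. Lines with all members on numbered 2 at 0.5 CPM and 0 at 5 CPM. The median rho between members was 0.929 by Pearson r of log2(CPM + 1), 0.902 when centred within genotype, 0.650 without SKO115.2 and SKO163.5, and 0.721 to 0.817 with a line left out. Values under 3 reads are not told apart from 0, which for Gimap3, Gimap5 and Gimap7 holds in most lines other than SKO115.2 and SKO163.5. No paired analysis was possible because the labels give the lines no replicate numbers that pair them.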
